A study of Mus musculus with 2 samples.

Results

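The mouse genes for DNA methyltransferases and Tet dioxygenases are 7 of the 33696 genes in the deposited matrix, namely Dnmt1, Dnmt3a, Dnmt3b, Dnmt3l, Tet1, Tet2 and Tet3. They are taken by symbol, and each symbol matched 1 row. Their transcripts were counted in 16841 of 21593 called cells (78.0%), those with at least 1000 genes and at most 10% mitochondrial transcripts. All 7 were detected, with between 1815 UMIs (Tet3) and 35390 UMIs (Dnmt3b); a UMI is a molecular barcode that marks 1 captured transcript.

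The study described 2 samples of the mouse cell line Delmix, with 1 sample per group. The first was untreated epiblast stem cells, a line of the primed pluripotent state, which resembles the epiblast shortly before gastrulation. The other was embryoid bodies, aggregates of differentiating cells, made from those stem cells and collected on day 2. Both were dissociated with trypsin and prepared by droplet-based 3' single-cell RNA sequencing, with a channel for each sample per the labels. The counts nevertheless lie in 1 pooled matrix, and the cell tags in it match no sample label, so no value below belongs to either sample and the samples were not compared. Cells were grouped by their transcripts into 12 clusters without use of the 7 genes. With 1 pooled library there was no replicate check and no test, and every interval below is a 95% interval that covers counting error only.

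DNA methylation in mammals sits mainly on cytosines followed by guanine (CpG). DNMT1 copies the mark onto the new strand after replication, with UHRF1 as its guide to hemimethylated sites. DNMT3A and DNMT3B place new methylation, and DNMT3L, which has no catalytic activity of its own, assists them. TET1, TET2 and TET3 oxidise methylated cytosine, which starts its removal. In mouse pluripotent cells the naive state, like that of the early blastocyst, is known for low global methylation, and the primed state for high methylation and high Dnmt3b.

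Levels are given as CPM, the UMIs of a gene per 1000000 UMIs of the same group of cells. They are compared between groups of cells for 1 gene at a time, since 3' counts do not set different genes on 1 scale and do not tell isoforms apart. Cluster 1 (4568 cells) was called naive-like, with 12 of 13 naive pluripotency markers raised at least 2-fold over all remaining cells and Zfp42, Esrrb and Nr5a2 among its leading genes. Cluster 2 (4120 cells) was led by Car4, Pou3f1 and Pim2, and cluster 3 (2818 cells) by Hs3st4, Ptprt and Hdac9. Both were left unnamed, as none of the 11 primed epiblast markers was raised 2-fold there, although the markers summed to 1055 and 1163 CPM against 529 in cluster 1. Pou5f1, the core pluripotency factor, stood at 636, 626 and 534 CPM in clusters 1, 2 and 3. Cluster 4 (1713 cells) was led by Fgf8, Meis2 and T and stayed unnamed. Clusters 5 (1027 cells), 6 (705 cells), 7 (531 cells), 11 (210 cells) and 12 (81 cells) were epithelial-like, primitive streak and mesoderm-like, fibroblast or feeder-like, two-cell-like and macrophage-like. Cluster 7 is called the feeder-like cluster from here on. Cluster 9 (336 cells; Rhox9 and Rhox6) and cluster 10 (226 cells; Fabp7, Pax3 and Zic1) were not named, and cluster 8 (506 cells) was set apart by its depth, with a median of 2727.5 UMIs and 8.13% mitochondrial transcripts.

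The DNA before 3 of the genes is shown first, because Dnmt3b, Dnmt3l and Tet1 differ in the courses described below: with more naive markers Dnmt3b was lower, Tet1 was higher, and Dnmt3l was higher and then level. Each comes from the 250 bases before a start in the RefSeq promoter table on GRCm38.p6, read 5′ to 3′ on the gene's strand. Shown is the longest run of them that lies outside the gene's RefSeq bounds and outside any exon of the GENCODE annotation. That leaves 212, 250 and 105 bases outside the bounds of Dnmt3b, Dnmt3l and Tet1, of which 0, 99 and 43 are in exons. Capitals mark CpG.

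Dnmt3b, chr2:153649199-153649410, plus strand: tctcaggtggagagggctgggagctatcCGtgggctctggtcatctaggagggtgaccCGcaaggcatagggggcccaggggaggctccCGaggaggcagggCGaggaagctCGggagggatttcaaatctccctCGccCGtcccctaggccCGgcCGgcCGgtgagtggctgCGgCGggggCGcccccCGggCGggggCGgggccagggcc
Dnmt3l, chr10:78042136-78042286, plus strand: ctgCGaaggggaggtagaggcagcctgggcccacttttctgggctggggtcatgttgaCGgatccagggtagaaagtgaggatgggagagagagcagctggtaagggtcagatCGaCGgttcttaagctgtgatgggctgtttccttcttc
Tet1, chr10:62887513-62887574, minus strand: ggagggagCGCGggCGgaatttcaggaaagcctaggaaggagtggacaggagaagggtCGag

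The Dnmt3b stretch held 16 CpG in 212 bases, that of Dnmt3l 4 in 151 bases and that of Tet1 4 in 62 bases. Over the full 250 bases before the start, Dnmt3b had 21 CpG, Tet1 15, Tet2 51 and Tet3 17. The 3 listed starts of Dnmt3l had 5, 4 and 3, those of Dnmt3a 38, 40 and 15, and those of Dnmt1 26, 7 and 2. The median over 32851 promoters was 6, so every listed Dnmt3l start lay below it and every start of Dnmt3a, Dnmt3b and the Tet genes above it. All 7 genes matched the table, with 13 starts. Of 7 motifs searched on both strands in those 250 bases, the GC box GGGCGGG was found before Dnmt3b, before every listed start of Dnmt3a, and before 1 start each of Dnmt1 and Dnmt3l, and 23.4% of all promoters hold it. CCAAT was found before 2 starts of Dnmt1 and before Tet3, against 33.8% of all promoters. TGACGTCA, ATGCAAAT, TCAAGGTCA, TTTCCCGC and TTTGGCGC were found before none of the 13 starts, and between 0.387% and 1.60% of all promoters hold them. A match describes the letters only. The files hold no methylation data.

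Dnmt1 (ENSMUSG00000004099), the maintenance enzyme, was the most even of the 7 across clusters. It stood at 156 CPM (152 to 161) in the naive-like cluster, 136 (131 to 140) in cluster 2 and 156 (151 to 161) in cluster 3. Clusters 4, 6, 8, 9 and 10 lay between 140 and 161 CPM, cluster 5 at 131 (123 to 139) and the two-cell-like cells at 109 (92.9 to 126). The lowest level among the 11 clusters of at least 100 cells was 73.6 CPM (66.0 to 81.9) in the feeder-like cluster, and it was 49.0 without cells called doublets. With doublets kept, the highest level (161 CPM, cluster 10) was 2.19-fold the lowest, and 9 of 10 neighbours in the order of levels had overlapping intervals. Without called doublets the range was wider, as cluster 10 then stood at 183 CPM. S phase genes summed to 1859 CPM in the feeder-like cluster, against 4878 in the naive-like cluster. Whether that had a part in the lower Dnmt1 was not tested.

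Dnmt3b (ENSMUSG00000027478), a de novo enzyme, was highest in cluster 3 at 444 CPM (436 to 453), followed by cluster 2 at 381 (373 to 388), cluster 4 at 363 (353 to 374) and cluster 8 at 360 (330 to 392). The two-cell-like cells stood at 244 CPM (221 to 270), the epithelial-like cells at 207 (197 to 217) and the naive-like cluster at 182 (177 to 186). Streak and mesoderm-like cells had 141 CPM (131 to 153), cluster 10 had 128 (108 to 151), the feeder-like cluster 96.9 (88.1 to 106) and cluster 9, with Rhox9 and Rhox6, 60.4 (50.4 to 71.7). Of the 10 neighbouring pairs in this order 3 overlapped, clusters 2 and 4, 4 and 8, and 6 and 10.

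Dnmt3a (ENSMUSG00000020661), the other de novo enzyme, was highest in the same cluster 3, at 115 CPM (111 to 119). Cluster 8 stood at 106 CPM (89.8 to 124), cluster 10 at 95.1 (77.8 to 115), cluster 2 at 93.3 (89.7 to 97.2), cluster 4 at 85.0 (80.0 to 90.2) and the streak and mesoderm-like cells at 80.5 (72.7 to 89.0). The two-cell-like cells had 71.1 CPM (58.6 to 85.6), and the epithelial-like, feeder-like and naive-like cells 54.1, 53.6 and 50.2. Cluster 9 was lowest at 20.1 CPM (14.6 to 27.1), from 43 UMIs. With doublets kept, both de novo genes were thus lowest in the Rhox9 and Rhox6 cells. Without called doublets Dnmt3b was lower in the feeder-like cluster, at 46.5 CPM against 60.4 in cluster 9. Cluster 10 and the streak and mesoderm-like cells kept Dnmt3a nearer its highest level than Dnmt3b.

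Dnmt3l (ENSMUSG00000000730), the cofactor, followed another order. It was highest in the naive-like cluster at 125 CPM (121 to 129), the two-cell-like cells at 116 (99.4 to 134) and cluster 9 at 107 (93.7 to 122), whose neighbouring intervals overlapped. Clusters 2 and 3 stood at 82.8 CPM (79.3 to 86.4) and 73.9 (70.5 to 77.5), cluster 8 at 59.7 (47.8 to 73.5) and the epithelial-like cells at 50.5 (45.7 to 55.6). The feeder-like cluster had 32.9 CPM, the streak and mesoderm-like cells 29.7, cluster 4 had 26.2 and cluster 10 had 25.1. Without called doublets these 4 stood at 16.8, 11.5, 14.3 and 14.6 CPM, while the naive-like cluster stayed at 125. With each cell thinned to 2000 UMIs, 19.2% of naive-like cells had a Dnmt3l UMI (18.1 to 20.4%), whereas the feeder-like cluster, of a type that is not known to express it, had 4.34% (2.77 to 6.44%). Median depths there were 6880.5 and 7391 UMIs, and before thinning the shares were 48.8% and 17.1%.

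Tet1 (ENSMUSG00000047146) was highest in cluster 8 at 892 CPM (845 to 942), followed by the naive-like cluster at 422 (415 to 429), cluster 9 at 332 (308 to 358) and cluster 3 at 247 (240 to 253). The two-cell-like cells stood at 185 CPM, clusters 2, 4 and 10 at 163, 154 and 135, and the streak and mesoderm-like and epithelial-like cells at 108 and 107. The feeder-like cluster was lowest at 81.6 CPM (73.6 to 90.2), or 49.0 without called doublets. After thinning, 53.5% of naive-like cells had a Tet1 UMI (52.1 to 55.0%), and 12.8% in the feeder-like cluster (10.1 to 16.0%).

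Tet2 (ENSMUSG00000040943) was also highest in cluster 8, at 107 CPM (91.1 to 125), and then in the naive-like cluster at 45.7 (43.5 to 48.0) and cluster 9 at 35.6 (28.0 to 44.5). Cluster 10, the feeder-like cluster and cluster 3 had 26.0, 22.0 and 20.2 CPM. The other 5 clusters of at least 100 cells lay between 10.9 CPM (epithelial-like) and 14.1 (streak and mesoderm-like), and their neighbouring intervals overlapped.

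Tet3 (ENSMUSG00000034832) ran in nearly the opposite order to Dnmt3l. It was highest in cluster 10 at 52.0 CPM (39.5 to 67.3), the cells led by Fabp7, Pax3 and Zic1, from 58 UMIs. Cluster 8 had 31.2 CPM, the feeder-like cluster 24.5, the streak and mesoderm-like cells 23, cluster 4 had 19.6 and the epithelial-like cells 18.8. Clusters 3 and 2 had 17.2 and 13.1 CPM, and the naive-like cluster 8.88 (7.91 to 9.94). The two-cell-like cells and cluster 9 were lowest, at 5.72 and 3.74 CPM, from 9 and 8 UMIs. The 81 macrophage-like cells lay at 83.5, 95, 155, 58.0, 99.7, 20.9 and 27.8 CPM for Dnmt1, Dnmt3a, Dnmt3b, Dnmt3l, Tet1, Tet2 and Tet3. Without called doublets, 22.2% of those cells, Dnmt3b was at 74.8 CPM there, Dnmt3l at 24.9 and Tet1 at 42.8.

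**Figure D1:**
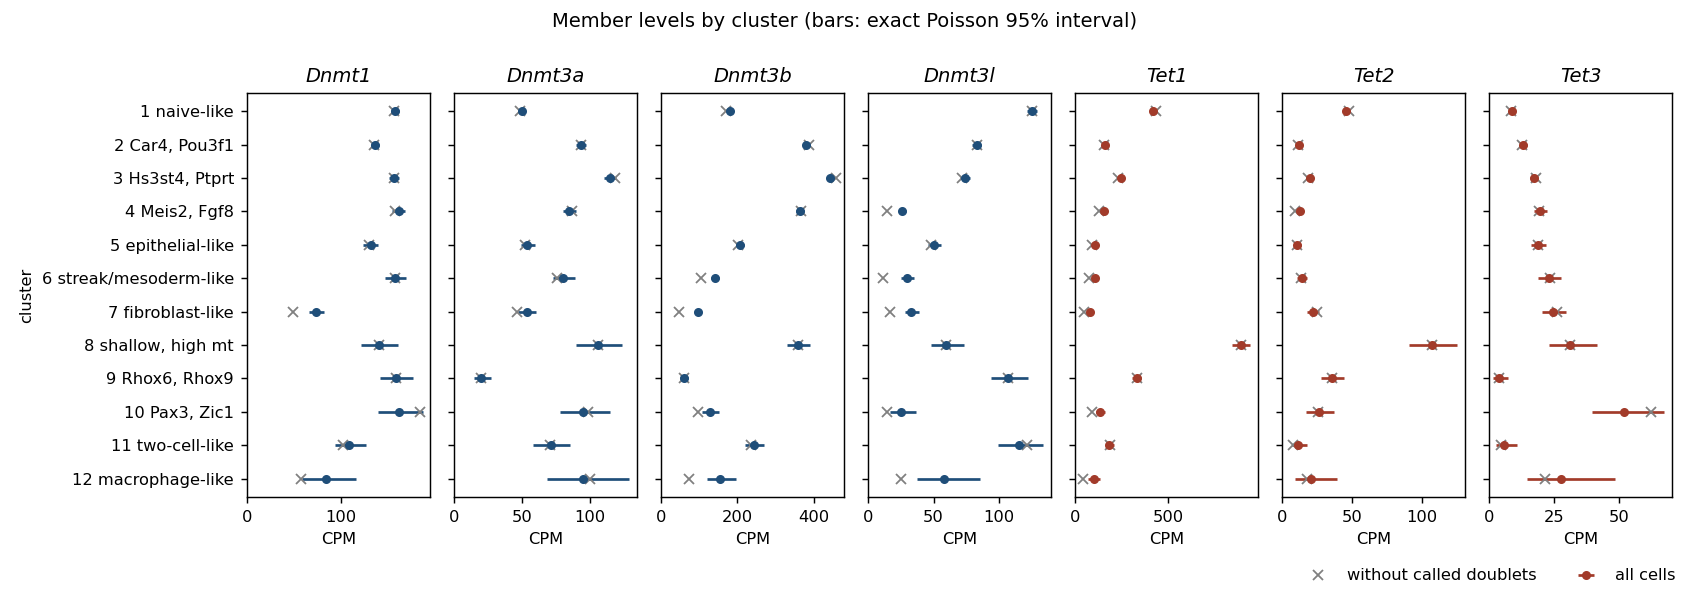
Levels of the 7 genes (CPM, each panel with its own axis from 0) in the 12 clusters, with exact Poisson 95% intervals as bars and levels without called doublets as crosses. Dnmt3b reached 444 CPM in cluster 3 against 60.4 in cluster 9, Dnmt3l 125 in cluster 1 against 25.1 in cluster 10, and Tet1 and Tet2 were highest in the shallow cluster 8 and next in cluster 1.

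Transcripts outside cells form a background in droplets. In 72027 uncalled droplets of 150 to 300 UMIs the 7 genes stood at 174 CPM (Dnmt1), 89.6 (Dnmt3a), 315 (Dnmt3b), 121 (Dnmt3l), 255 (Tet1), 34.5 (Tet2) and 11.9 (Tet3). The content of 1 such droplet would add at most 23.4 CPM to a cluster (Dnmt3b in cluster 8), and 10.9 CPM to Dnmt3b in cluster 2. In the feeder-like cluster it would add 7.81 CPM of Dnmt3b, where the level was 96.9 CPM, or 46.5 without called doublets. For Dnmt3l the 11.5 CPM of streak and mesoderm-like cells without called doublets compares with 3.90 CPM from such a droplet. The free RNA in each cell was not measured, and its part in these levels was not tested.

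To compare the naive-like cells with the other large pluripotent clusters, cluster 1 was set against clusters 2 and 3 together. The choice of cluster 1 for it was made after the data were seen, because the fixed rule (the cluster with the highest summed naive markers) picked cluster 9. Dnmt3b stood at 182 CPM against 411 (406 to 417), or 2.26-fold lower in the naive-like cells (interval 2.20 to 2.33). Dnmt3a stood at 50.2 against 104 CPM (101 to 107), or 2.07-fold lower (1.96 to 2.18). Tet1 was 2.08-fold higher (2.02 to 2.13), at 422 against 203 CPM, and Tet2 2.89-fold higher (2.65 to 3.15), at 45.7 against 15.8. A gene was called where it differed at least 2-fold and its higher level was at least 20 CPM. Called were therefore 4 of the 7, against 5.58% of all 6823 genes with at least 20 CPM on either side; 2 were higher (background 2.30%) and 2 lower (3.28%). Dnmt3a and Tet1 lay close to that line, and the interval of Dnmt3a reached below it. Under 11 other settings, some of which grouped the cells anew, Dnmt3a passed the line in 6, Dnmt3b in 10 and Tet1 and Tet2 in all 11.

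The other 3 genes stayed within 2-fold. Dnmt3l was 1.59-fold higher in the naive-like cells (1.52 to 1.66), at 125 against 78.5 CPM, and passed 2-fold under 4 of the 11 other settings, with log2 ratios of 0.41 to 1.36 over them. Tet3 was 1.70-fold lower (1.48 to 1.95), at 8.88 against 15.1 CPM, and so also under the minimum of 20 CPM for a call. Dnmt1 stood at 156 against 145 CPM, a ratio of 1.08 (1.04 to 1.12). On the log2 scale with a pseudocount of 1 CPM the 7 ratios were 0.11 (Dnmt1), -1.03 (Dnmt3a), -1.17 (Dnmt3b), 0.66 (Dnmt3l), 1.05 (Tet1), 1.47 (Tet2) and -0.70 (Tet3), with a median of 0.11 against -0.05 over all genes compared.

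**Figure D2:**
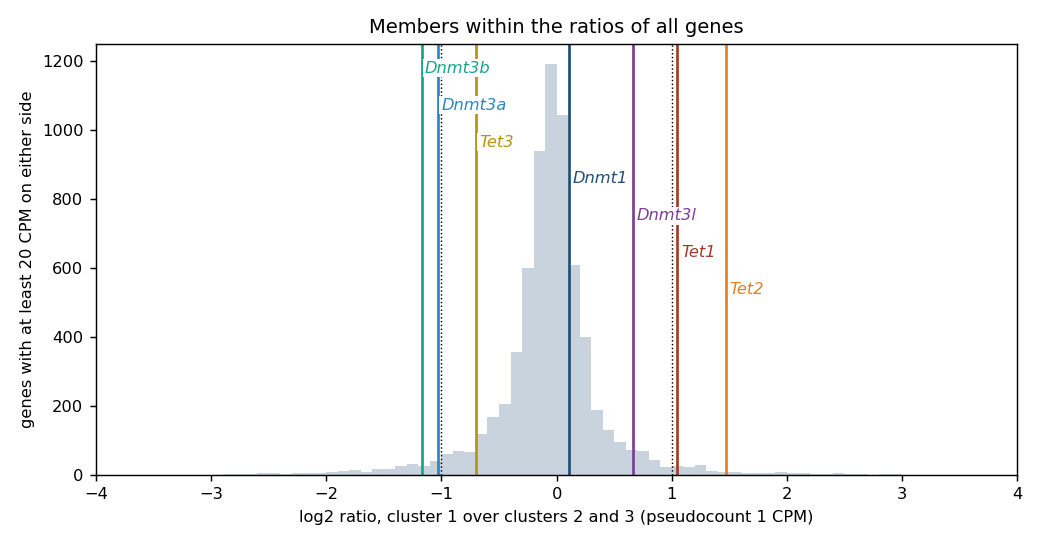
Log2 ratio of cluster 1 over clusters 2 and 3 for all genes with at least 20 CPM on either side (grey histogram; number of genes per bin) and for the 7 genes (coloured lines), with dotted lines at 2-fold. Dnmt3b (-1.17) and Dnmt3a (-1.03) lie past the lower line, Tet1 (1.05) and Tet2 (1.47) past the upper line, and Dnmt1 (0.11) near the centre.

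Used singly as the reference, clusters 2 and 3 gave different calls for Dnmt3a and Tet1. Against cluster 2 alone, 3 of 7 were called (background 4.96%), Dnmt3b lower and Tet1 and Tet2 higher, with Tet1 at 2.59-fold and Tet2 at 3.87-fold. Against cluster 3 alone, 3 of 7 were called (background 7.64%), Dnmt3a and Dnmt3b lower and Tet2 higher, and Tet1 was 1.71-fold higher (1.66 to 1.76). Tet1 was 1.51-fold higher in cluster 3 than in cluster 2 (1.45 to 1.57) and Tet2 1.71-fold (1.48 to 1.98). None of the 7 was called between clusters 2 and 3, against 1.44% of all genes compared, which were all lower in cluster 2, and whose median log2 ratio was -0.17.

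The comparison as planned, cluster 9 over clusters 1 and 2, gave another picture. Dppa3 decided which cluster had the highest marker sum: cluster 9 led by 2823 to 2769 CPM with it and trailed by 2285 to 2583 without it. In cluster 9, 6 of 7 germ cell markers and 6 of 13 naive markers were raised, with Dppa3 and Prdm14 on both lists. There 2 of 7 genes were called, both lower (background 7.53% either way and 3.75% lower), namely Dnmt3a at 20.1 against 68.7 CPM and Dnmt3b at 60.4 against 267. The log2 ratios were -1.72 for Dnmt3a and -2.13 for Dnmt3b, and 0.09, 0.00, 0.10 and 0.18 for Dnmt1, Dnmt3l, Tet1 and Tet2. Tet3, under the minimum of 20 CPM, had a ratio of -1.30 from 8 UMIs in cluster 9.

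The remaining clusters were set against the same clusters 2 and 3, with which all these comparisons share their reference. Each is also given without called doublets, a setting added after the data were seen, where that changed a call or moved a called fold by over 1.5 times. Cluster 4 had 1 of 7 genes called (background 5.45%), Dnmt3l, which was 3.00-fold lower (2.69 to 3.37), or 5.45-fold (4.6 to 6.5) without called doublets. Dnmt3b there was 1.13-fold lower and Dnmt3a 1.22-fold lower, so that these de novo enzymes stayed within 1.5-fold while their cofactor did not. The streak and mesoderm-like cells had 2 of 7 called (background 12.1%), Dnmt3b at 2.91-fold lower (2.69 to 3.15) and Dnmt3l at 2.64-fold lower (2.23 to 3.15), with Dnmt3a at 1.29-fold lower. Without called doublets Dnmt3b was 3.98-fold lower there and Dnmt3l 6.79-fold lower (4.93 to 9.61), and Tet1 was called too, at 2.58-fold lower, which made 3 of 7 (background 16.3%). Cluster 10 had 3 of 7 (background 16.1%): Dnmt3b was 3.21-fold lower, Dnmt3l 3.13-fold lower and Tet3 3.45-fold higher (2.59 to 4.51). Without called doublets it had 4 of 7 (background 22.0%), with Dnmt3l 5.32-fold lower (3.04 to 10.3) and Tet1 2.05-fold lower (1.64 to 2.60). Fibroblast or feeder markers summed to 410 CPM in cluster 10 and to 7119 in the feeder-like cluster, where Tet3 was lower than in cluster 10. Whether feeder-like cells had a part in the Tet3 level of cluster 10 was not tested. In the epithelial-like cells none of 7 was called (background 3.17%), although Dnmt3a, Dnmt3b and Tet1 were 1.92-, 1.99- and 1.91-fold lower, while 0.331% of all genes were 2-fold lower. Without called doublets Dnmt3b and Tet1 were 2.08- and 2.07-fold lower there, which made 2 of 7 (background 3.81%). The two-cell-like cells had none called either (background 13.1%), with Dnmt3b 1.68-fold lower and Dnmt3l 1.47-fold higher. Tet3 was 2.64-fold lower there (1.38 to 5.80), at 5.71 against 15.1 CPM, and so under the minimum of 20 CPM. In that comparison the median log2 ratio over all genes was -0.18. Cluster 9 had 3 of 7 (background 13.1%), with Dnmt3b 6.81-fold lower (5.73 to 8.16), Dnmt3a 5.15-fold lower (3.82 to 7.13) and Tet2 2.25-fold higher. Tet3, under the same minimum, was 4.03-fold lower (2.03 to 9.37) from 8 UMIs in cluster 9.

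In 3 clusters the share of all genes called was large. The feeder-like cluster had 3 of 7 genes lower, Dnmt3b, Dnmt3l and Tet1 (background 31.7% either way and 13.7% lower), and the macrophage-like cells 2, Dnmt3b and Tet1 (38.8% and 22.8%). Without called doublets these counts were 5 of 7 in the feeder-like cluster (background 43.4%), where Dnmt1 and Dnmt3a were also called at 2.95- and 2.25-fold lower and Dnmt3b was 9.06-fold lower, against 4.25-fold with them. Dnmt3l there was 4.64-fold lower against 2.38-fold, and Tet1 3.92-fold against 2.49-fold. In the macrophage-like cells 4 of 7 were called without doublets (background 55.3%), Dnmt1, Dnmt3b, Dnmt3l and Tet1, at 2.53-, 5.63-, 3.12- and 4.50-fold lower. The median log2 ratio over all genes was -0.13 and -0.41 in these comparisons with doublets kept. The shallow cluster 8 had 3 of 7 higher, Tet1 at 4.39-fold (4.14 to 4.65), Tet2 at 6.77-fold (5.67 to 8.04) and Tet3 at 2.07-fold (1.5 to 2.79), against 51.0% of all genes either way and 34.7% higher, and a median log2 ratio over all genes of 0.52. Meg3, a long RNA that stays in the nucleus, stood at 3700 CPM in cluster 8 against 861 in the naive-like cluster, and its median mitochondrial share was 8.13% against 3.23%. The part of these in the Tet values was not tested. Tet2 in cluster 8 exceeded 99.8% of all genes compared in that ratio, Tet1 98.9% and Tet3 65.3%.

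The 7 genes were also followed along the naive state without clusters, by the number of naive marker UMIs in each of 16547 cells thinned to 2000 UMIs (13 markers, none of them one of the 7). From cells with no naive UMI (5840 cells) to those with 11 or more (386 cells), Dnmt3b was lower at every step, at 356, 341, 290, 203, 146 and 131 CPM. Dnmt3a stood at 90.0, 96.5, 78.9, 56.4, 40.2 and 37.1 CPM. Tet1 was higher at every step, at 148, 189, 276, 387, 452 and 475 CPM, and so was Tet2, at 11.9, 17.6, 25.6, 41.4, 53.0 and 58.8. Tet3 ran from 19.07 to 6.36 CPM, lower at every step, and Dnmt1 from 141 (137 to 145) to 160 (145 to 176). The differences were spread over several bins. With few marker UMIs per cell and all clusters pooled, the bins cannot tell a gradual course from a changing mix of cells. The median depth of the bins ranged from 6202 to 6963.5 UMIs, and Pou5f1 went from 502 to 632 CPM.

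Dnmt3l was higher up to 4 to 6 naive UMIs and did not differ beyond its intervals after that. It stood at 47.7 CPM (45.5 to 49.9) in cells with no naive UMI, then 70.2, 101 and 117 (113 to 122) at 4 to 6 UMIs, and at 114 (108 to 121) and 102.5 (90.8 to 115) in the last bins. Counted on the thinned UMIs alone the course was 43.8, 63.2, 95.1, 106, 112 and 110 CPM, with its highest value in a later bin. Without called doublets it was 46.0, 69.0, 104, 120, 115 and 104 CPM. Within the naive-like cluster the order was the reverse: Dnmt3l was 149 CPM (124 to 177) in its 107 cells without a naive UMI and 105 (92.7 to 119) in its 348 cells with 11 or more, or 145 and 115 on the thinned UMIs alone. Within cluster 2 it went up, from 67.3 CPM (62.7 to 72.2) without a naive UMI to 131 (112 to 153) in 183 cells with 4 to 6, and stood at 42.6 (11.6 to 109), from 4 UMIs, in 17 cells with 7 to 10. Within cluster 3 it went from 59.5 (54.8 to 64.6) to 93.0 (84.7 to 102) at 2 to 3 naive UMIs, and was 85.5 (72.7 to 99.8) at 4 to 6.

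The other genes were followed inside clusters too. In the naive-like cluster Dnmt3b was 284 CPM (250 to 322) without a naive UMI and 131 (117 to 147) with 11 or more, Dnmt3a 82.5 (64.6 to 104) and 38.1 (30.7 to 46.6), and Tet1 350 (311 to 391) and 466 (440 to 494). These 3 genes ran there as in all cells, with end intervals apart. Dnmt1 was 173 (147 to 203) and 159 (144 to 176) in the same bins, Tet2 37.8 (26.0 to 53.1) and 58.1 (49.0 to 68.5), and Tet3 12.6 (6.29 to 22.6) and 6.96 (4.05 to 11.1), each with overlapping intervals. In cluster 3, between cells with no naive UMI and those with 4 to 6, Dnmt3b was 485 (472 to 499) and 339 (313 to 367) CPM, Tet1 200 (191 to 209) and 354 (328 to 382), and Tet2 14.0 (11.8 to 16.6) and 36.5 (28.4 to 46.3). In cluster 2 over the same bins Dnmt3b was 398 and 294 CPM and Tet1 141 and 229. Dnmt3a was 92.3 (86.8 to 97.99) and 73.6 (59.4 to 90.3) in cluster 2 and 113 (107 to 120) and 102 (88.1 to 118) in cluster 3, with overlapping intervals in both.

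**Figure D3:**
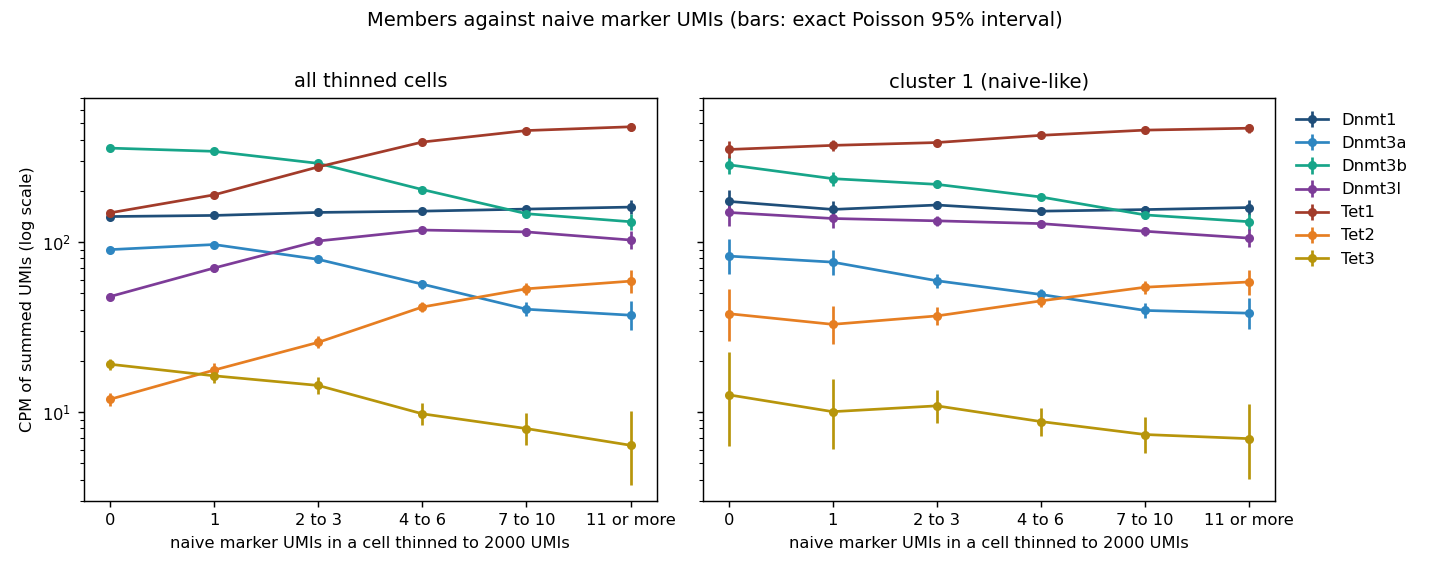
Levels of the 7 genes (CPM, log axis; bars are exact Poisson 95% intervals) by number of naive marker UMIs per thinned cell, in all thinned cells and in cluster 1. Dnmt3b went from 356 to 131 CPM and Tet1 from 148 to 475 in all cells, while Dnmt3l went from 47.7 to 117 CPM at 4 to 6 UMIs and then stayed level within its intervals; in cluster 1 it went from 149 to 105 CPM.

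Within the naive-like cluster, cells were also grouped by Dnmt3l itself. From 3661 thinned cells with no Dnmt3l UMI to 144 cells with 2 or more, Dnmt3b was 173 CPM (168 to 178) and 246 (219 to 276) and Tet1 412 (405 to 420) and 493 (454 to 535), while Dnmt1 was 157 and 149. The median depth of those cells was 6824 and 7763 UMIs, and its part was not tested. By Nanog, from cells with no UMI to cells with 2 or more, Dnmt3b was 187 (182 to 192) and 169 (149 to 191) CPM and Tet1 416 (409 to 424) and 446 (413 to 481), with overlapping intervals.

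DNMT1 works at replication forks, so levels were compared over 4 bins of cells by their UMIs of 39 S phase genes. In the naive-like cluster Dnmt1 was 146 CPM (138 to 153) in the lowest bin and 165 (155 to 174) in the highest, in cluster 2 it was 128 (120 to 137) and 144 (135 to 154), and in cluster 3 it was 152 (143 to 161) and 163 (152 to 174). Its end intervals overlapped in clusters 2 and 3 and were apart only in the naive-like cluster. Uhrf1, the guide of DNMT1, which was not among the 39 genes, went from 150 (143 to 158) to 239 (228 to 251) in the naive-like cluster, from 135 to 209 in cluster 2 and from 149 to 225 in cluster 3. The de novo genes were higher in the highest bin of each of these clusters, with end intervals apart. Dnmt3b went from 378 (364 to 393) to 517 (498 to 537) in cluster 3, from 334 (321 to 347) to 412 (396 to 429) in cluster 2 and from 165 (157 to 174) to 201 (190 to 211) CPM in the naive-like cluster. Dnmt3a went from 46.6 (42.5 to 51.0) to 60.0 (54.5 to 65.9) in the naive-like cluster, from 80.0 (73.7 to 86.8) to 113 (105 to 122) in cluster 2 and from 100.1 (92.8 to 108) to 133 (123 to 143) in cluster 3. Median depth differed little between the end bins, at 6929 and 6472 UMIs in the naive-like cluster, 5857 and 5662.5 in cluster 2 and 7907 and 7902 in cluster 3.

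Over 4 bins by 50 G2/M phase genes, Dnmt1 stayed between 150 and 162 CPM in clusters 1 and 3, and Dnmt3l showed the widest course in cluster 2, from 57.9 CPM (51.8 to 64.5) to 101 (94.1 to 109). Dnmt3b went from 148 (139 to 157) to 204 (194 to 214) in the naive-like cluster. Depth moved with these bins, with medians of 5106 and 6553 UMIs in cluster 2 and 6025 and 7778 in cluster 1, and its part was not tested.

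**Figure D4:**
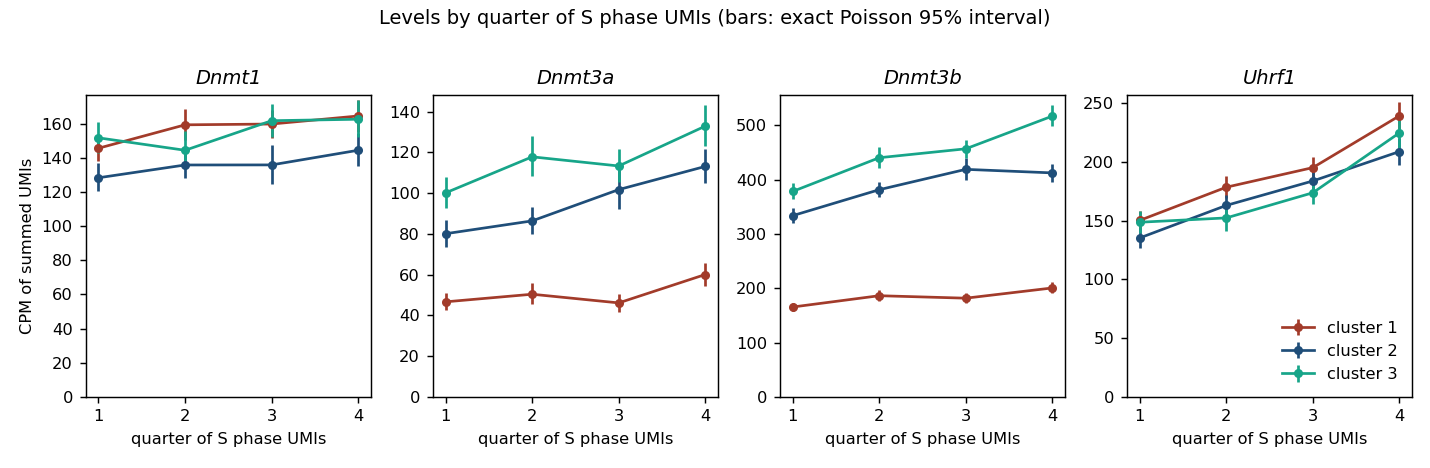
Levels (CPM, axes from 0; bars are exact Poisson 95% intervals) of Dnmt1, Dnmt3a, Dnmt3b and Uhrf1 over 4 bins of S phase UMIs per thinned cell in clusters 1, 2 and 3. Uhrf1 went from 150 to 239 CPM in cluster 1 where Dnmt1 went from 146 to 165, and Dnmt3b in cluster 3 went from 378 to 517.

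Among 6067 genes with at least 50 CPM in their highest cluster, those most like each of the 7 were found by Pearson correlation of log2(CPM + 1) over the 11 clusters of at least 100 cells. These correlations are descriptions over 11 points from 1 library that share depth and doublets. Dnmt1 was most like Top2a (r = 0.99), Parp2 (0.97) and Mcm6 (0.97), of which TOP2A and MCM6 work in chromosome segregation and replication. Dnmt3a was most like Bcl11a (0.92), Rragd (0.92) and Slc1a3 (0.91). Dnmt3b was most like Fgf5 (0.91), a growth factor gene of the primed epiblast, Tcfl5 (0.90) and Dgkb (0.88). Dnmt3l was most like Hsf2bp (0.97), Cyct (0.95) and Trap1a (0.95). Tet1 was most like Lypla1 (0.98), Jarid2 (0.98), a partner of Polycomb complex PRC2, and Usp28 (0.98). Tet2 was most like Cdyl2 (0.96), Scmh1 (0.94) and Tns3 (0.94), and Tet3 most like Fbxl7 (0.98), Gli3 (0.97), a transcription factor of the hedgehog pathway, and Zfp618 (0.97). Between members, Dnmt3a and Dnmt3b had r = 0.78, Tet1 and Tet2 0.82, Tet1 and Dnmt3l 0.56, and Dnmt3l and Tet3 -0.81. Without the shallow cluster 8 these were 0.76, 0.62, 0.76 and -0.86. Other pairs moved more, among them Tet1 and Tet3, from -0.23 to -0.67, and Dnmt3b and Tet2, from -0.12 to -0.54. The r of Tet2 with Cdyl2, Scmh1 and Tns3 was 0.91, 0.90 and 0.85 without that cluster.

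Other genes of the methylation machinery were compared in the same way between the naive-like cluster and clusters 2 and 3, in 6 lists. Counts are out of the genes that reached 20 CPM on either side, as in the backgrounds of 2.30% higher and 3.28% lower. All 16 genes for maintenance and targeting reached it, and 1 was higher: Zfp57, which protects imprinted methylation, at 71.2 against 19.0 CPM. Uhrf1 stood at 188 against 171 CPM, and the list's median log2 ratio was -0.00. Of 15 genes for demethylation and base excision 7 reached 20 CPM, and 1 of these was higher, Gadd45a at 68.2 against 30.1 CPM, with a median of 0.09 over the 7. Of 7 genes listed under readers of methylated CpG, Mbd3 among them, 4 reached it, and 1 was higher, Zbtb38 at 58.1 against 27.5 CPM, with a median of 0.03 over the 4. Of 10 regulators and partners 7 reached it, and 1 was higher, Dppa3, a factor that keeps UHRF1 from chromatin, at 186 against 45.3 CPM, with a median of 0.04 over the 7; Dppa3 is also one of the naive markers. Of 10 genes for methyl donor supply 7 reached it and none was called, with a median of 0.11. Of 15 germline genes known to be silenced by promoter methylation 5 reached it, and 2 were higher, Tex19.1 at 105 against 49.8 CPM and Hormad1 at 54.4 against 20. The median of those 5 was 0.60, and over all 15 it was 0.15. No gene of the 6 lists was called lower.

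The tags gave no samples, so levels by tag describe tag counts alone. The 155 kept cells with only CMO311 above the level of the 99th percentile of cell-free droplets had 238 CPM of Tet1 (211 to 269), 304 of Dnmt3b (272 to 338) and 85.9 of Dnmt3l (69.7 to 105). The 1890 cells with only CMO312 had 204 (197 to 212), 293 (284 to 302) and 66.6 (62.5 to 70.9). Cells of the naive-like cluster made up 23.9% of the former and 9.31% of the latter, and their part in these values was not tested. Neither tag stood above that level in 14788 of the kept cells.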

How the data were processed

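The authors deposited raw UMI counts for each gene and barcode. Per the file headers they come from Cell Ranger 8.0.1, and the submitters' processing notes also name Seurat, with no version. The deposited tag table calls a tag for each of the 21593 called cells and leaves 21465 of them unassigned (99.4%). Its assignment probabilities and log10 tag counts were not used. The coordinates above are those of the RefSeq table on GRCm38.p6. The build and annotation behind the counts are not given in the sources used here.

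Filtering of cells (1000 genes or more, mitochondrial share no higher than 10%) removed 3345 for few genes and 4308 for mitochondrial share, some for both. The cells left held 121114764 UMIs, from 1265 to 34748 per cell, with a median of 6473. Clusters came from scanpy 1.11.5 (Leiden, resolution 0.5, 2000 variable genes without the 7 genes and the phase genes, 30 components, 15 neighbours). CPM were computed from summed UMIs with exact Poisson intervals, shares of cells from cells thinned to 2000 UMIs with exact binomial intervals (294 shallower cells left out, 111 of them in cluster 8), and intervals of ratios from the exact conditional distribution of the counts. A call meant a 2-fold ratio with a pseudocount of 1 CPM and at least 20 CPM in the higher group. Scrublet, at an expected rate of 0.1, called 1730 kept cells doublets (10.3%), which were kept except where stated. Free RNA was not removed. The scripts were tested on simulated data.

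A cluster was named where at least 3 markers of a list were raised, no other list had more than 0.5 times that number, and the list led its 10 leading genes. That rule was set after the clusters were seen. The members, marker lists and gene lists were chosen with earlier results of these data known. The genes named are all 7 members, the 3 genes most like each, and of each gene list up to 4 genes by their ratio of highest to lowest cluster, some of which are not reported here. Gadd45a, Prdm14 and Uhrf1 lie outside that rule and were chosen after their values were seen. Alternatives were other cell filters, doublets left out, another resolution, members allowed in the clustering, equal weight per cell, other totals, median centring, free RNA subtracted, cells grouped by naive UMIs and a pseudocount of 5 CPM.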

Additional observations from a re-analysis of the deposited data

Results flagged for a closer look

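The 7 genes were also present in the called cells left out of the comparisons, above the level that a count of 0 would allow. In the 4308 cells over the mitochondrial maximum, with a median of 1216 UMIs, Dnmt1 stood at 134 CPM, Dnmt3a at 103, Dnmt3b at 353, Dnmt3l at 74.2, Tet1 at 748, Tet2 at 75.3 and Tet3 at 24.8. A count of 0 there would allow up to 0.493 CPM. In the kept cells Tet1 stood at 254 CPM and Tet2 at 25.3, so both were higher in the cells over the maximum. Both were also higher in the shallow cluster 8. The rise over the maximum was not particular to these genes. Dnmt3a and Dnmt3b, at 78.4 and 292 CPM in the kept cells, were higher there too, and so was Tet3. Dnmt1 and Dnmt3l, at 146 and 80.8 CPM in the kept cells, were not higher there.

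In the 444 cells under the gene minimum with a mitochondrial share within the maximum, with a median of 893 UMIs, Dnmt1 stood at 130 CPM, Dnmt3a at 118, Dnmt3b at 238, Dnmt3l at 53.2, Tet1 at 479 (416 to 549), Tet2 at 62.4 and Tet3 at 18.5. A count of 0 there would allow up to 6.94 CPM. These values come from between 8 UMIs (Tet3) and 207 UMIs (Tet1).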

How the results depend on the processing

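No paired analysis was possible because the counts lie in 1 pooled library. For the planned comparison (cluster 9 over clusters 1 and 2), 9 alternatives gave 2 or 3 genes past 2-fold. With the strict filter (at least 2000 genes, at most 5% mitochondrial UMIs, clustered again) the log2 ratios were -1.85 for Dnmt3b, 0.35 for Tet1 and 0.56 for Tet2. With cells grouped by naive UMIs (4 or more against 0) they were -0.85 for Dnmt3a, -0.99 for Dnmt3b, 1.26 for Dnmt3l, 1.48 for Tet1 and 1.89 for Tet2, a comparison of other cells by construction. That setting thus replaced the called genes: Dnmt3l, Tet1 and Tet2 were called higher, and neither Dnmt3a nor Dnmt3b was called. In the planned comparison itself Tet2 was not called, and over the alternatives it ranged from -0.15 (resolution 1.0) to 1.89 (cells by naive UMIs). The lenient filter and the clustering with the members could give no value for the planned comparison, since cluster 9 then matched the same cluster as one of its references. For cluster 1 over clusters 2 and 3, chosen after seeing the data, 11 alternatives gave 3 to 5 genes. Dnmt3b ranged from -1.42 to -0.99, Dnmt3a from -1.22 to -0.85, Tet1 from 1.03 to 1.48, Tet2 from 1.28 to 1.99, Tet3 from -1.02 to -0.53 and Dnmt1 from 0.09 to 0.22, each in 1 direction. Dnmt3a was not called with the strict filter, with median centring, with a pseudocount of 5 CPM, with the members in the clustering or with cells by naive UMIs, the last of which also ended the call of Dnmt3b. Dnmt3l was called with the lenient filter, at resolution 1.0, with the members in the clustering and with cells by naive UMIs. Without called doublets, the genes called against clusters 2 and 3 went from 0 to 2 in cluster 5, from 3 to 5 in cluster 7 and from 2 to 4 in cluster 12, and in the other 6 clusters the count stayed within 1.5 times. Settings that clustered the cells again compared partly other cells. The best matches (Jaccard overlap) of clusters 1, 2 and 3 were 0.62, 0.36 and 0.23 under the strict filter and 0.55, 0.48 and 0.19 under the lenient filter. At resolution 1.0 they were 0.45, 0.57 and 0.36, and with the members in the clustering 0.83, 0.59 and 0.37. Cluster 9 had a best match of 0.36 under the strict filter and 0.84 at resolution 1.0. The cause of the shifts in calls was not tested. Depth limits Tet3 most, at 8 and 9 UMIs in clusters 9 and 11.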

Other observations

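Across clusters, other genes of the methylation lists that the naming rule picks differed mostly at the fibroblast or feeder-like and the shallow cluster. Usp7, a deubiquitinase that partners DNMT1 and UHRF1, ranged from 89.6 CPM in the former to 554 in the latter, Nsd1 from 136 to 696, Ogt, a glycosyltransferase that binds TET proteins, from 144 to 719, Mtr from 9.90 to 46.8 and Mthfd1 from 54.3 to 190. Apobec1 was also highest in the shallow cluster, at 28.5 CPM, whereas Mbd3, a subunit of the NuRD complex, was lowest there, at 33.2 CPM against 102 in the streak and mesoderm-like cells.

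Other genes of these lists followed single cell groups. Cxxc4, a gene for a CpG-binding protein next to Tet2 in the mouse genome, was highest in cluster 10 at 26.9 CPM, the cluster in which Tet3 was also highest, and had 1 UMI in cluster 9. Ung, a base excision enzyme, was highest in cluster 9 at 170 CPM, and so was Shmt1 at 103. Kdm2b was lowest there at 45.9 CPM, against 262 in cluster 8. Gadd45b was highest in the epithelial-like cells at 62.7 CPM, of which it is a leading gene, and Gadd45g in cluster 10 at 63.7. Mbd1 was highest in the fibroblast or feeder-like cells at 22.8 CPM. The germline genes Slc25a31, Stk31, Tex19.1 and Hormad1 were all highest in the two-cell-like cells, at 25.4, 67.9, 182 and 55.2 CPM, where Dnmt3b stood at 244 CPM and Dnmt3l at 116. The Hormad1 value there came from 87 UMIs and lay close to the 54.4 CPM of the naive-like cluster.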
